A study of Mus musculus with 6 samples.

Results

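The cytosolic heat shock system of mdx myoblasts was examined through 10 genes chosen by their symbols, Hsf1, Hspa1a, Hspa1b, Hspa8, Hsp90aa1, Hsph1, Dnajb1, Hspb1, Hspb8 and Bag3. All 10 were among the 47069 genes of the count table, and all 10 passed the filter on low counts that kept 14165 genes for testing. The genes were picked to ask whether stress from misfolded cytosolic protein was part of the response to PSB-KD107, a synthetic agonist of the receptor Gpr18. The cells were muscle stem cells of mdx mice, which lack dystrophin and serve as a model of Duchenne muscular dystrophy. Per the methods, they were sorted as Sca-1-, CD45-, CD31-, CD11b-, Itgb1+ and Itga7+ cells and treated as myoblasts. Ham's F10 medium with serum and FGF2 is described for the proliferation assay and a low-serum medium for differentiation. Which medium the sequenced cells were in is not stated. The methods describe the mdx mice as male animals on a C57BL/10 background and give an age of 10 weeks for those that were injected, with no separate age for the donors of these cells. There were 3 vehicle libraries and 3 libraries from cells given 10 μM PSB-KD107, which the labels also call PSB-KD-1. The vehicle was DMSO in aqueous buffer, although the series text calls the controls untreated, and the labels give a treatment of 2 days where the methods give an overnight one. The methods state that the cells came from 3 different mice, without saying which libraries shared a mouse.

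The libraries held between 30917613 and 48756794 counts, and the table numbers those of each group 1, 2 and 4. Levels are given as CPM, counts per 1000000 counts after scaling of the libraries by the TMM method, on which 3 counts in a library correspond to between 0.0596 and 0.0962 CPM (counting error only). Markers of macrophages summed to 2.39 to 5.10 CPM with vehicle and 0.963 to 7.31 CPM with PSB-KD107, with 3 of the 9 (Adgre1, C1qa and C1qb) at 0 in every library, and endothelial markers summed to 0.310 to 1.40 CPM with vehicle and 0.385 to 1.21 CPM with PSB-KD107. Markers of fibroblasts and adipogenic progenitors summed to 153 to 401 CPM with vehicle and 64.7 to 327 CPM with PSB-KD107, nearly all of it from Col3a1. The labels call the cells muscle stem cells, and Pax7, the transcription factor that marks them, stood at 10.2 CPM per kilobase of exon with vehicle. The 3 myoblast markers with the highest mean CPM, not divided by length, were Des, Itga7 and Cdh15, at 838, 129 and 327 CPM per kilobase with vehicle. The 3 differentiating markers chosen the same way were Myh3, Acta1 and Myh8, at 2938, 3929 and 237 CPM per kilobase. Pax7 had 68.8, 49.9 and 60.0 CPM with vehicle and 34.0, 26.8 and 35.1 CPM with PSB-KD107 (edgeR unadjusted p = 0.00164, edgeR adjusted p = 0.209), and DESeq2 called it lower with an adjusted p-value of 6.4e-04. Of the 12 differentiating markers, 4 (Myog, Mymk, Mymx and Myh3) were lower with PSB-KD107 at an unadjusted p-value under 0.05 by edgeR. At that threshold 2.93% of all genes tested were lower. DESeq2 called all of these 4 but Myog, where it called 0.982% of the genes it adjusted as lower. By the sign of the log2 fold change, 7 of the 12 differentiating markers were lower and 5 higher. Of the 8 myoblast markers, 6 were lower and 2 higher. The part of these markers in the levels of the heat shock genes was not tested. In such bulk samples, fewer cells of a type cannot be told from less RNA per cell.

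Heat shock factor 1, the product of Hsf1, is held inactive by chaperones and is released when misfolded proteins occupy them. It then binds heat shock elements in DNA and switches on genes for chaperones. Its activity depends on assembly, modification and location of the protein, so that the level of the Hsf1 transcript is a poor readout of it and the target genes are read instead. Hspa1a and Hspa1b encode the inducible HSP70 and are among its most responsive targets, while Hspa8 encodes the constitutive HSC70. Hsp90aa1 encodes the inducible form of cytosolic HSP90, Hsph1 the exchange factor HSP110, and Dnajb1 the J-domain protein HSP40 that hands clients to HSP70. Hspb1 and Hspb8 encode small heat shock proteins, which hold unfolded proteins in solution. Bag3 encodes a scaffold that joins HSPB8 with HSP70 to send damaged muscle proteins to autophagy.

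The promoter letters of these genes are shown because the question turns on heat shock elements. RefSeq windows of 300 bases (GRCm38.p6, 250 bases before the annotated start and 50 from it on) were at hand for 7 of the 10 genes, the exceptions being Hsf1, Hspa8 and Hsp90aa1. A heat shock element was searched on both strands as a pair of inverted units, GAANNTTC or TTCNNGAA, in which N is any base and neighboring matches may overlap. It was found in a window of 6 of the 7 genes, all but Dnajb1. The share over all 32851 windows, 15.1%, counts windows and not genes, and Hsph1 and Dnajb1 had 2 windows each. The longer form of 3 units, GAANNTTCNNGAA or TTCNNGAANNTTC, was in both windows of Hsph1 and in 0.603% of all windows. Counting from +1 at the start, the match began at -104 in Hspa1a and Hspa1b, at -117 and -97 in Hspb1, and at -33, 37 and 42 in the first of the 2 Hsph1 windows, where the last pair forms the longer motif. In Hspb8 and Bag3 it lay after the start, at 3 and 43. A match of letters is a description of sequence and not a bound site. The following stretches of 100 bases read 5′ to 3′ in the direction of the gene, with the matched letters in capitals. They show the matches of 2 units before the start of Hspa1a, Hspb1 and Hsph1. The match of 3 units in Hsph1 lies after the start and outside the stretch shown.
Hspa1a (chr17:34972207-34972306, minus strand): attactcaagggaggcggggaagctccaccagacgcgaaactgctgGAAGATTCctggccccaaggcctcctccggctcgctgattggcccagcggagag
Hspb1 (chr5:135887766-135887865, plus strand): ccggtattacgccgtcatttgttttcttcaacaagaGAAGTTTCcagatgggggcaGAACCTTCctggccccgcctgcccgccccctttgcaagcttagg
Hsph1 (chr5:149636337-149636436, minus strand): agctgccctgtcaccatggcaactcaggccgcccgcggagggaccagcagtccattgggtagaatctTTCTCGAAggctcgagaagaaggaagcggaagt
The stretch of Hspa1b (chr17:34959289-34959388, minus strand) is identical to that of Hspa1a, and the whole windows of the pair differ at 4 of 300 bases.

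No member of the heat shock set passed the test between PSB-KD107-treated and vehicle-treated myoblasts, and the estimates lay on both sides of 0. The quasi-likelihood test of edgeR, adjusted over all genes by the Benjamini-Hochberg method, called 0 of the 10 at an adjusted p-value under 0.05, but it also called 0 (0%) of all 14165 genes. The smallest adjusted p-value in the set was 0.588, for Hspa1a. At an unadjusted p-value under 0.05, 0 of the 10 were higher and 0 lower, where 6.47% of all genes tested were higher and 2.93% lower. DESeq2, the tool named in the methods, called 0 of the 10, where it called 2.58% of the genes it adjusted as higher and 0.982% as lower. Of the 10, 4 had a fold change above 0 on the log2 scale and 6 below, with a median of -0.025 against -0.00074 for all genes tested. The level of the whole set summed to 3565 to 4440.3 CPM with vehicle and 3443 to 4517 CPM with PSB-KD107, and these ranges overlapped. The 95% interval of the log2 fold change lay below 1, a doubling, for 8 of the 10, the exceptions being Hspa1a and Hspb8, and for 72.7% of all genes tested. All libraries were of a single treatment time, and levels at earlier times were not measured.

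**Figure D1:**
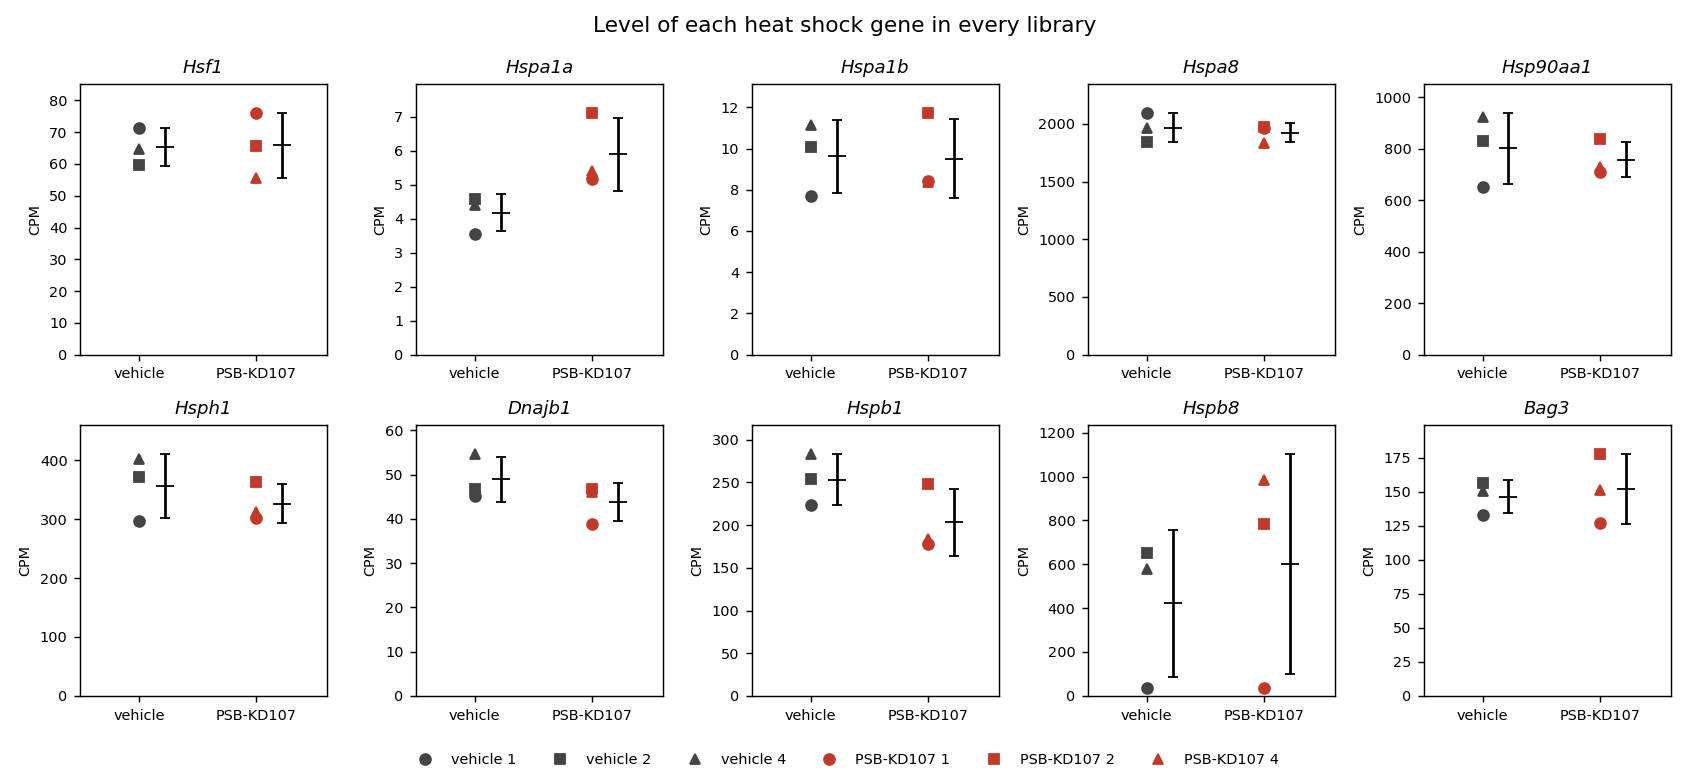
Level of each of the 10 heat shock genes in CPM (y axes from 0) in the 3 vehicle and 3 PSB-KD107 libraries, with the mean and SD of each group beside the points and a marker shape for each library number. The groups overlap in every panel except that of Hspa1a, and in Hspb8 both libraries numbered 1 lie far below the other 4.

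Hspa1a, of the inducible HSP70 pair, had the smallest p-value of the set. Hspa1a (ENSMUSG00000091971, chromosome 17 from 34969190 to 34972156, minus strand, a gene of a single exon in GRCm38) was read at 139, 160 and 142 counts in vehicle libraries 1, 2 and 4, and at 260, 222 and 196 in PSB-KD107 libraries 1, 2 and 4. All groups of values here follow that order. On the CPM scale these were 3.55, 4.58 and 4.40 with vehicle and 5.17, 7.12 and 5.39 with PSB-KD107. Every treated library was above every vehicle library, which was so for 9.20% of all genes tested, with a further 6.59% not overlapping in the other direction. The log2 fold change was 0.50 (95% interval -0.064 to 1.06), with an adjusted p-value of 0.588 from edgeR and of 0.419 from DESeq2. A two-sided exact permutation test gave p = 0.1, the smallest that 3 libraries against 3 can give.

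Its near-identical neighbor Hspa1b (ENSMUSG00000090877, chromosome 17 from 34956436 to 34959238) did not share this pattern. It had 7.68, 10.1 and 11.1 CPM with vehicle and 8.41, 11.7 and 8.39 CPM with PSB-KD107, and the groups overlapped. The log2 fold change was -0.018 (95% interval -0.57 to 0.54, edgeR adjusted p = 0.984). The counts of this pair are uncertain one by one. Of the stretches of 100 bases, the length of a read, in the Hspa1a transcript, 47.1% occur letter for letter in that of Hspa1b, and how the authors' counting treated such reads was not stated. Gm20481, a gene on the other strand, also overlaps Hspa1a. The summed counts of the pair are free of the split between them. They came to 11.2, 14.7 and 15.5 CPM with vehicle and 13.6, 18.9 and 13.8 CPM with PSB-KD107, and the groups overlapped. The sum had a log2 fold change of 0.16 (95% interval -0.35 to 0.66, edgeR adjusted p = 0.845). A doubling of inducible HSP70 transcripts at the time of harvest thus lay outside the interval. The share of the summed counts assigned to Hspa1a was 30.4% ± 1.78 with vehicle and 38.3% ± 0.716 with PSB-KD107 (mean ± SD over 3 libraries each). An exact permutation test on both sides gave p = 0.1 for this share, a comparison chosen after the values were seen.

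The constitutive HSP70 gene was the most abundant of the set per length and had the narrowest interval. Hspa8 (ENSMUSG00000015656, chromosome 9 from 40800984 to 40810087) had 2097, 1841 and 1966 CPM with vehicle and 1965, 1976 and 1833 CPM with PSB-KD107. The log2 fold change came to -0.032 (95% interval -0.32 to 0.25), so that a change of more than 1.19-fold upward or to below 0.804 of the vehicle level lay outside the interval. Per kilobase of exon, Hspa8 stood at 458 ± 29.8 CPM with vehicle (mean ± SD, n = 3). It was followed by Hspb1 at 246 ± 29.2, Hspb8 at 217 ± 172 and Hsp90aa1 at 204 ± 35.3 CPM per kilobase, which did not differ from each other beyond their spread. Bag3 at 57.2 ± 4.81 and Hsph1 at 49.1 ± 7.46 formed the next pair and also lay within their spread of each other. Dnajb1 stood at 15.3 ± 1.57 and Hsf1 at 9.19 ± 0.836 CPM per kilobase. The inducible genes were lowest, with Hspa1b at 3.44 ± 0.632 and Hspa1a at 1.41 ± 0.187 CPM per kilobase. Inducible HSP70 was thus a small part of the HSP70 transcripts in vehicle and in PSB-KD107 libraries alike, with 3.39 and 1.99 against 447 CPM per kilobase after treatment.

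The transcript of the regulator itself was nearly the same in both groups. Hsf1 (ENSMUSG00000022556, chromosome 15 from 76477422 to 76501913) had 71.4, 59.5 and 64.8 CPM with vehicle and 76.1, 65.8 and 55.6 CPM with PSB-KD107, and the treated libraries spanned the whole vehicle range. Its log2 fold change was 0.013 (95% interval -0.34 to 0.36, edgeR adjusted p = 0.982). RNA-seq does not measure the assembly or phosphorylation of the protein. Hsp90aa1 (ENSMUSG00000021270, chromosome 12 from 110690605 to 110702728) had 651, 828 and 925 CPM with vehicle and 708, 836 and 728 CPM with PSB-KD107. Hsph1 (ENSMUSG00000029657, chromosome 5 from 149614287 to 149636376) had 297, 371 and 402 CPM with vehicle and 302, 364 and 312 CPM with PSB-KD107. In both genes the libraries numbered 1 were the lowest of their group, and the groups overlapped. Their log2 fold changes were -0.081 (95% interval -0.47 to 0.31) and -0.13 (95% interval -0.49 to 0.23).

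Dnajb1 (ENSMUSG00000005483, chromosome 8 from 83608193 to 83612653) had 45.3, 46.8 and 54.7 CPM with vehicle and 38.8, 46.7 and 46.0 CPM with PSB-KD107, with a log2 fold change of -0.16 (95% interval -0.47 to 0.15). Its interval ended below a rise of 1.11-fold. Hspb1 (ENSMUSG00000004951, chromosome 5 from 135887919 to 135889563), which encodes HSP25 in the mouse, had 223, 254 and 283 CPM with vehicle and 178, 249 and 183 CPM with PSB-KD107. Of the genes with a narrow interval it had the lowest estimate, with a log2 fold change of -0.32 (95% interval -0.73 to 0.091, edgeR adjusted p = 0.626), and PSB-KD107 library 2 overlapped the vehicle range. Bag3 (ENSMUSG00000030847, chromosome 7 from 128523616 to 128546981) had 133, 156 and 151 CPM with vehicle and 127, 178 and 152 CPM with PSB-KD107, with a log2 fold change of 0.054 (95% interval -0.30 to 0.41). The gene 2610306O10Rik overlaps Bag3 on the same strand.

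**Figure D2:**
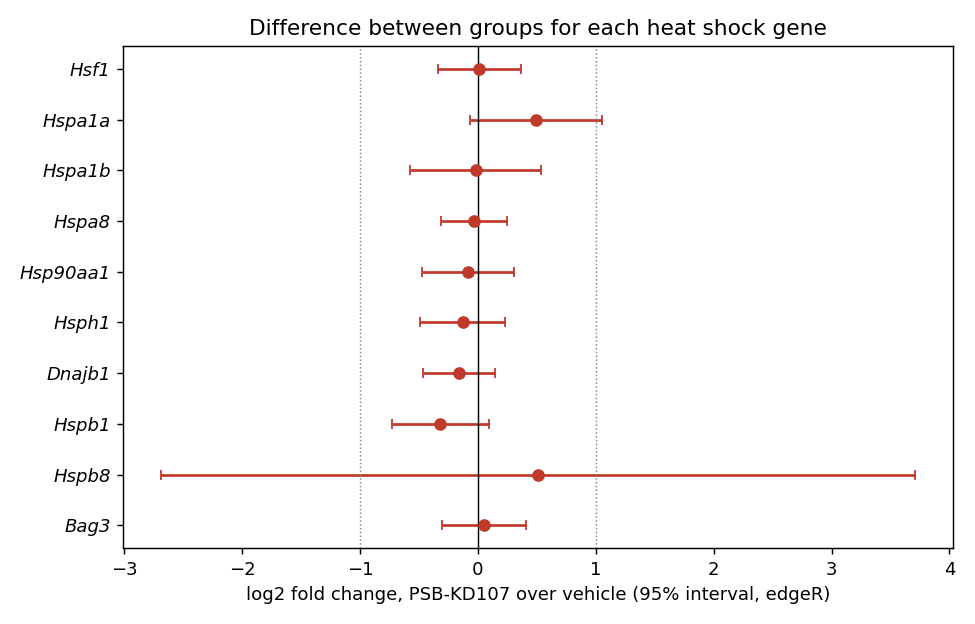
Log2 fold change of PSB-KD107 over vehicle for the 10 heat shock genes (points) with the 95% interval from edgeR's quasi-likelihood fit (bars), and dotted lines at a doubling and a halving. All 10 intervals cross 0, and that of Hspb8 runs from -2.69 to 3.71.

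Hspb8 (ENSMUSG00000041548, chromosome 5 from 116408491 to 116422864) varied between libraries of the same group far more than the other members did. Its counts were 1436, 22774 and 18640 with vehicle and 1714, 24450 and 35846 with PSB-KD107, that is 36.6, 652 and 578 CPM with vehicle and 34.1, 784 and 986 CPM with PSB-KD107. The libraries numbered 1 were low in both groups, at a mean of 35.3 CPM against 750.2 CPM in the other 4, a 21.2-fold difference that was picked out after the values were seen. Within a number, the PSB-KD107 library had 0.930, 1.20 and 1.71 times the CPM of the vehicle library. Over all libraries the fit gave a log2 fold change of 0.51 with a standard error of 1.31 (95% interval -2.69 to 3.71), an interval that spans from 0.155 to 13.1 times the vehicle level. With the library number as a block over all 6 libraries, the log2 fold change was 0.31 (SE of 0.196, edgeR unadjusted p = 0.186, edgeR adjusted p = 0.569). Without both libraries numbered 1, it came to 0.52 (SE of 0.176, edgeR unadjusted p = 0.0410, edgeR adjusted p = 0.579).

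The libraries numbered 1 also stood apart in other genes. Of the 14165 genes tested, 29 were at least 8 times lower in both libraries numbered 1 than in each of the other 4, Hspb8 among them, and 3 were at least 8 times higher. One of the low genes was Xist, the RNA that silences an X chromosome in female cells, with 6.45, 341 and 437 CPM with vehicle and 7.41, 363 and 276 CPM with PSB-KD107. The Y-linked genes Ddx3y, Eif2s3y, Kdm5d and Uty were at most 0.119 CPM in every library, although the methods describe the mice as male. The part of these differences between libraries in the levels of Hspb8 was not tested. Since both groups hold a library of each number, they do not separate PSB-KD107 from vehicle.

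Among the other small heat shock genes, 6 of the 8 listed were tested, as Hspb9 and Cryaa had 0 counts in every library. The group had a median log2 fold change of -0.13, with 2 genes higher and 4 lower. Hspb2, a partner of the muscle small heat shock protein Hspb3, had 139.6, 134 and 131 CPM with vehicle and 106, 125 and 109 CPM with PSB-KD107, and its groups did not overlap. The estimate was -0.25 (edgeR unadjusted p = 0.0422, edgeR adjusted p = 0.514). Hspb7, which is expressed in striated muscle, had 76.3, 31.4 and 20.8 CPM with vehicle and 79.8, 28.0 and 127 CPM with PSB-KD107. Hspb3 had 17.8, 9.82 and 5.71 CPM with vehicle and 10.4, 5.58 and 32.4 CPM with PSB-KD107. These levels were high in vehicle library 1 and in PSB-KD107 libraries 1 and 4. Of the 12 markers of differentiating muscle, 3 (Myl1, Tnnc1 and Myh8) had their 3 highest levels in these same libraries and the other 9 did not. The values were 3779, 1413 and 683 CPM with vehicle and 3212, 919 and 2331 CPM with PSB-KD107 for the myosin light chain gene Myl1, and 2818, 1167 and 832 CPM with vehicle and 2402, 969 and 2501 CPM with PSB-KD107 for troponin C, Tnnc1. The part of differentiation in the levels of Hspb7 and Hspb3 was not tested, and Hspb8 did not share their order. All 12 listed markers of differentiating muscle together summed to 34068 to 46749.5 CPM with vehicle and 29299.6 to 37141 CPM with PSB-KD107. Cryab, the αB-crystallin gene and a known target of heat shock factors, had 647, 716 and 728 CPM with vehicle and 569.7, 786 and 400.1 CPM with PSB-KD107, a log2 fold change of -0.25 (95% interval -0.85 to 0.35).

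**Figure D3:**
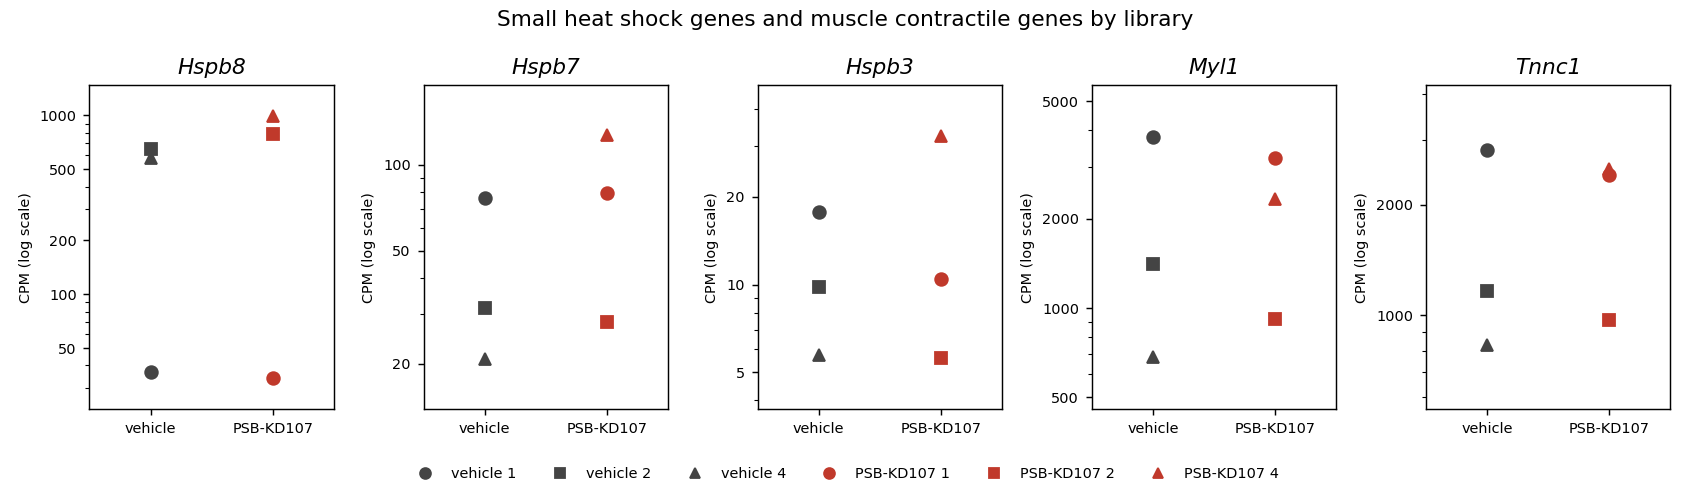
CPM on log scales of the small heat shock genes Hspb8, Hspb7 and Hspb3 and of the contractile genes Myl1 and Tnnc1 in each library, with color for the group and marker shape for the library number. Both libraries numbered 1 are lowest for Hspb8, whereas vehicle library 1 and PSB-KD107 libraries 1 and 4 are the 3 highest for the other 4 genes.

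The rest of the cytosolic folding machinery was read from lists of 86 further genes, of which 82 were tested. Their median log2 fold change was -0.027. At an unadjusted p-value under 0.05, 3 (3.66%) were higher and 2 (2.44%) lower, both shares below those of all genes, and 0 passed after adjustment in edgeR. DESeq2 called 2 higher and 1 lower, where it called 2.58% and 0.982% of the genes it adjusted. The PSB-KD107 libraries were all above the vehicle libraries for 3 of the 82 and all below for 10. Of all genes tested, 9.20% were above and 6.59% below in this way. A list of 10 held other genes of the HSP70 and HSP110 family and its cofactors (Hspbp1, St13 and Sil1, the last acting in the ER). These genes had a median of 0.035 and a range from -0.34 to 0.11. The lowest p-values among them were those of Hspa2 and Hspa12b, at 0.756 and 0.783 after edgeR's adjustment. The 20 genes of HSP90 and its co-chaperones had a median of -0.016, with 9 higher and 11 lower. They summed to 6120.2 to 6537 CPM with vehicle and 5802 to 6079 CPM with PSB-KD107, ranges that did not overlap. Taken singly, 1 of the 20 genes had groups that did not overlap. The largest part of that sum was Hsp90ab1, the constitutive HSP90 gene. It had 3486, 3811 and 3969.8 CPM with vehicle and 3551, 3598 and 3266 CPM with PSB-KD107, and its groups overlapped. The co-chaperones with the lowest p-values were Ahsa2, an activator of the HSP90 ATPase, at a log2 fold change of -0.21, and Cdc37l1 at 0.29, with edgeR adjusted p-values of 0.615 and 0.629.

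Among 16 tested J-domain genes, Dnajb5 was lower and Dnajb2 higher at an unadjusted p-value under 0.05. Each is 6.25% of the list, where 6.47% of all genes tested were higher and 2.93% lower. DESeq2 called 1 of the 16 as lower, where it called 0.982% of the genes it adjusted. Dnajb5 had 123, 102 and 107 CPM with vehicle and 84.7, 81.1 and 82.2 CPM with PSB-KD107, a log2 fold change of -0.42 (adjusted p = 0.279 with edgeR and 0.00978 with DESeq2, which called it). Dnajb2, which sorts chaperone clients toward the proteasome, had 87.8, 79.4 and 80.1 CPM with vehicle and 101, 98.4 and 99.5 CPM with PSB-KD107, a log2 fold change of 0.28 (adjusted p = 0.403 with edgeR and 0.0791 with DESeq2). The groups did not overlap for either gene. Of the 16, 1 was wholly higher and 3 wholly lower in this way, against 9.20% and 6.59% of all genes tested. The chaperonin TRiC, which folds actin and tubulin, and its cofactors had a median of -0.097 over 10 genes, with 7 lower and 3 higher. Cct6a and Cct5 had its lowest p-values, with log2 fold changes of -0.20 and -0.16 and edgeR adjusted p-values of 0.625 and 0.672. The other heat shock factors and their regulators had a median of 0.083 over 8 tested genes. Hsf2, which encodes a second heat shock factor, had 64.6, 102 and 109 CPM with vehicle and 56.5, 84.5 and 81.0 CPM with PSB-KD107, again lowest in the libraries numbered 1, and a log2 fold change of -0.31 (edgeR adjusted p = 0.736). Hsf2bp, a partner of that factor, had one of 0.57 (edgeR adjusted p = 0.675), with PSB-KD107 library 4 at 13.4 CPM above the other 5.

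Among 12 BAG proteins and degradation factors, the median log2 fold change was -0.076. Sqstm1, which encodes p62, the receptor that carries ubiquitin-tagged protein into autophagosomes, had 374, 438 and 433 CPM with vehicle and 1021, 871 and 685 CPM with PSB-KD107. The groups did not overlap, and the log2 fold change was 1.05 (95% interval 0.63 to 1.47, adjusted p = 0.184 with edgeR and 1.0e-05 with DESeq2). DESeq2 called Sqstm1, whereas Bag3, the partner of p62 in chaperone-assisted autophagy, had the flat values given above.

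Chaperones of other compartments and the integrated stress response, through which kinases slow translation and raise the factor ATF4, were set beside the cytosolic genes. The sums of all 3 lists were higher with PSB-KD107 without overlap between the groups, as were 9.20% of all genes tested taken singly. Mitochondrial chaperones summed to 1489.8 to 1733 CPM with vehicle and 1939 to 2005 CPM with PSB-KD107, with 8 of 9 genes higher and a median of 0.14 on the log2 scale. Those with an unadjusted p-value under 0.05 were the matrix protease gene Lonp1, the mitochondrial HSP70 gene Hspa9 and its partner Dnaja3, at log2 fold changes of 0.61, 0.40 and 0.30. ER chaperones summed to 5017 to 5207 CPM with vehicle and 5761 to 6339 CPM with PSB-KD107, with 15 of 17 genes higher and a median of 0.20. Hspa5, the HSP70 gene of the ER and the closest counterpart there of the inducible cytosolic pair, had 844, 758 and 700.4 CPM with vehicle and 1219, 972 and 1026 CPM with PSB-KD107 and a log2 fold change of 0.48 (95% interval 0.15 to 0.82). Canx, Hsp90b1, Dnajb11 and Manf were the other ER genes under that p-value, at log2 fold changes of 0.44, 0.34, 0.26 and 0.48. DESeq2 called Lonp1, Hspa9, Hspa5 and Canx among these, and edgeR's adjusted p-values ran from 0.199 to 0.516. At an unadjusted p-value under 0.05 by edgeR, 3 of the 9 mitochondrial and 5 of the 17 ER genes were higher. Of all genes tested, 6.47% were higher at that threshold. DESeq2 called 2 genes of each list as higher, where it called 2.58% of the genes it adjusted. Over all 14165 genes tested, 7066 had a fold change above 0 on the log2 scale.

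All 14 genes of the integrated stress response had higher means with PSB-KD107. Their median log2 fold change was 1.16, and the list summed to 688 to 750.5 CPM with vehicle and 1226 to 1517 CPM with PSB-KD107. Of them 12 had an unadjusted p-value under 0.05 by edgeR, where 6.47% of all genes tested were higher at that threshold. DESeq2 called 9 of the 14, where it called 2.58% of the genes it adjusted as higher. After edgeR's adjustment 0 of the 14 passed, with a smallest adjusted p-value of 0.0738. The list was chosen with earlier results of these data known. Trib3, a pseudokinase gene induced by that response, had 4.44, 2.49 and 2.57 CPM with vehicle and 56.4, 36.6 and 34.8 CPM with PSB-KD107 and a log2 fold change of 3.75 (95% interval 2.93 to 4.56). Ddit3, which encodes the factor CHOP, had one of 2.44 (95% interval 1.80 to 3.08). The other 10 (Atf4, Atf5, Atf3, Chac1, Asns, Sesn2, Nupr1, Vldlr, Cebpb and Cebpg) ran from 0.57 to 2.18. The lower bounds for Trib3 and Ddit3 were above the upper bound of each heat shock gene except Hspb8. No test compared the lists with each other.

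**Figure D4:**
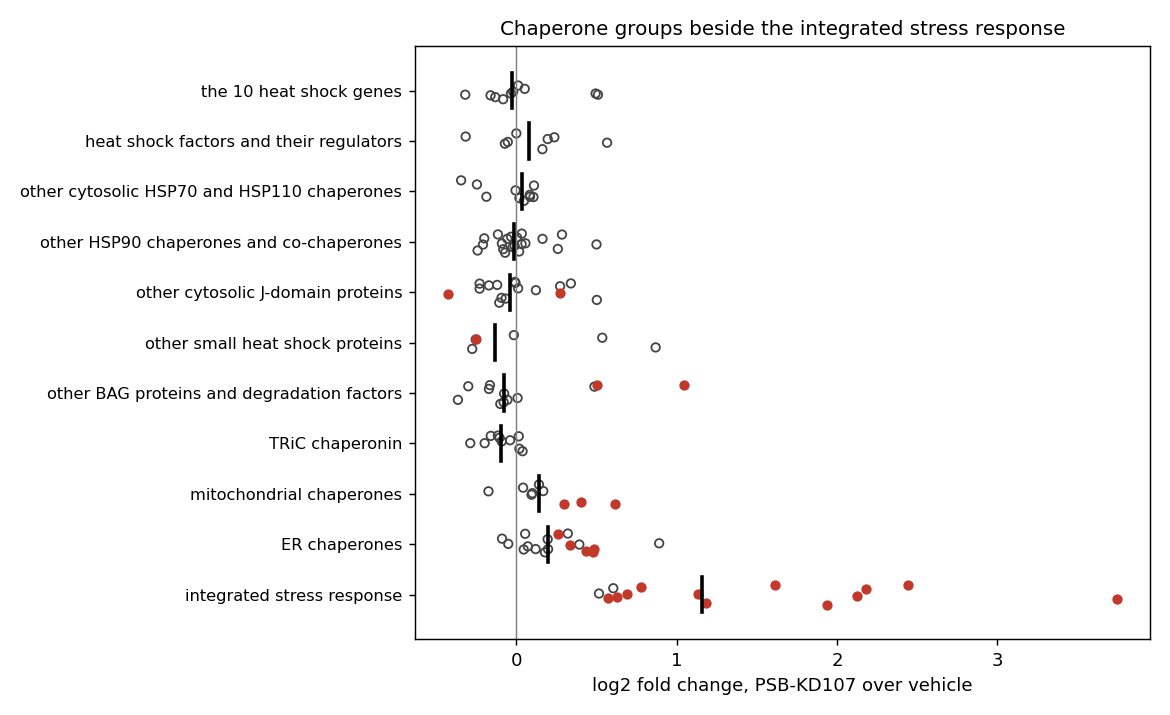
Log2 fold change of PSB-KD107 over vehicle for each tested gene of the 10 heat shock genes, 7 further cytosolic lists, mitochondrial and ER chaperones and the integrated stress response, with a bar at the median of each list. Filled points are those with p under 0.05 by edgeR before adjustment. The heat shock genes center on -0.025, and the integrated stress response on 1.16.

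The genes whose level over the 6 libraries was most like that of a member were found by the root mean square difference of log2 CPM, each gene centered on its own mean. For Hspa1a these were Rnh1, Vps13c and Gaa, at 0.0640 to 0.0763 on the log2 scale, and for Hsf1 they were Med29, Arl2 and Pih1d1, at 0.0235 to 0.0353. For Dnajb1 they were Zc3h11a, Lrrc8a and 1110059E24Rik (0.0315 to 0.0371), and for Bag3 they were Kifap3, 1500011K16Rik and Tubgcp5 (0.0195 to 0.0522). Apart from Pih1d1, which is on the list of HSP90 co-chaperones, none of these 12 genes is on a chaperone list used here. With 6 libraries and 14165 genes such likeness is a description of level alone.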

How the data were processed

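RNA of 3 vehicle and 3 PSB-KD107 libraries was sequenced in paired-end mode. The authors aligned the reads with STAR to the mouse genome (mm10 per the labels) and deposited raw counts per gene, and the counting program, annotation and strand setting are not given in the sources used here. Samples were grouped by their titles and by the column names of the table. The 2 libraries numbered 4 have no sample record of that number and were kept in their group as replicates without a record of their own. The labels do not say that the libraries are separate cultures, so p-values measure only the spread between them, which may be in part technical.

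Genes were filtered with filterByExpr and scaled with TMM factors (0.974 to 1.03), and the groups were compared with glmQLFit and glmQLFTest of edgeR 4.0.16 in R 4.3.3, with adjustment by Benjamini-Hochberg over 14165 genes and a threshold of 0.05. Intervals are the log2 fold change ± its standard error times the t quantile of the fit. Exact permutation tests were two-sided and used log2 CPM with 0.5 counts added, except that of the Hspa1a share, which used the percentages themselves. Coordinates and exon lengths came from GENCODE M21 (GRCm38), and promoters from RefSeq. Tables were handled with Python 3.11.15 and pandas 2.3.3. The scripts were tested on simulated data. Alternatives were RLE factors, no filter, DESeq2 1.42.0, limma-voom (limma 3.58.1), 2 other forms of the quasi-likelihood fit, the replicate number as a block, each library left out, and the summed counts of Hspa1a and Hspa1b. Leaving out both libraries numbered 1 was chosen after seeing the data.

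All 10 members are reported, and 1 gene of a further list is not reported here. From each further list, the text names the genes with an unadjusted p-value under 0.05 or else the 2 with the smallest, from each muscle marker list the 3 of highest mean, and single genes outside this rule (Cryab, Hspb3, Hspb7, Hsp90ab1, Pax7, Col3a1, Xist, the Y-linked genes, Myl1, Tnnc1 and 4 differentiating markers by their p-values) were chosen after their values were seen. The members and lists were chosen with earlier results of these data known.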

Additional observations from a re-analysis of the deposited data

How the results depend on the processing

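Under each alternative run, 0 of the 10 heat shock genes passed an adjusted p-value of 0.05, whereas the count over all genes moved. It went from 0 of 14165 to 482 of the 13540 genes that DESeq2 adjusted, and to 8 of 24186 without a filter on low counts. With the replicate block it went to 2456 of 14400 when only the libraries numbered 1 and 2 were fitted (4 libraries). The same 4 libraries without the block, and a block by number fitted to all 6, gave 0. Deviations from the group means correlated at 0.626, 0.479 and -0.129 within the numbers 1, 2 and 4. Vehicle libraries 1 and 2 each correlated best with the PSB-KD107 library of their own number. Vehicle library 4 correlated best with PSB-KD107 library 2. The numbers were not taken as pairs in the main fit because the labels and the count table number the libraries differently. Leaving out any 1 library moved the median log2 fold change of the members between -0.12 and 0.020. Several near-zero estimates changed sign. Hsf1 had -0.0016 with RLE factors, -0.0014 with DESeq2 and -0.045 without both libraries numbered 1. On the 4 libraries, Hspa1b, Hspa8 and Hsp90aa1 had 0.17, 0.0032 and 0.067 with the replicate block and 0.18, 0.00030 and 0.061 without it. With a library left out, ranges were -0.12 to 0.12 for Hsf1, -0.20 to 0.098 for Hspa1b, -0.087 to 0.0093 for Hspa8, -0.22 to 0.033 for Hsp90aa1, -0.080 to 0.15 for Bag3 and -0.046 to 1.06 for Hspb8, which was 1.06 without PSB-KD107 library 1, -0.043 without vehicle library 1 and -0.046 without PSB-KD107 library 4. Hspa1a was higher under each alternative, from 0.33 to 0.59, and its adjusted p-values, edgeR's or those of the other tools, were at least 0.0502. The lowest came from the replicate block on the 4 libraries (edgeR unadjusted p = 0.00858). The causes were not tested. The lowest count of a member in any library was 139.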
